A study of Mus musculus with 9 samples.

Results

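The E2f transcription factors and the retinoblastoma (Rb) pocket proteins were described from 10 genes chosen by name: E2f1 to E2f8, Rb1 and Rbl1. All 10 were measured, by the 13 probe sets annotated with one of these symbols alone, among 19147 genes tested. E2f6, E2f8 and Rb1 each had 2 probe sets, and each gene was read from its brightest probe set by mean log2 over the 9 arrays. The samples were cerebella of C57BL/6 mice at postnatal day 5, labelled as brain, with 3 arrays in each of 3 groups. The SmoA2 group carries a transgene with the activating SmoA2 mutation of Smoothened, which transmits signals of the ligand Sonic hedgehog (Shh) into the cell. The Smo/Smo group is named only so in the labels. It was taken as the SmoA1 line of the design text by elimination, and that name has been used elsewhere for mice homozygous for the SmoA1 transgene, but no zygosity is given for either line. The Wildtype group is described by that word alone. Both transgenes are driven by a fragment of the Neurod2 (ND2) promoter that acts in granule neuron precursors, so the mutant Smoothened is meant to act in only some of the cells in each sample. Each array has its own code, but the labels do not say that each code is a separate mouse, so p-values measure the spread between these samples. SmoA2 and Wildtype arrays share one series of codes and all Smo/Smo arrays carry another, so in every comparison with Smo/Smo the code series and the genotype cannot be told apart.

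E2f proteins bind DNA with a Dp partner and control genes needed for DNA synthesis. E2f1, E2f2 and E2f3 are known mainly as activators, E2f4 and E2f5 as repressors that work with pocket proteins, E2f6 as a repressor that works with polycomb proteins, and E2f7 and E2f8 as atypical repressors that bind without a Dp partner. Pocket proteins hold E2f factors inactive until cyclin-dependent kinases phosphorylate them. In the cerebellum, Shh from Purkinje cells drives granule neuron precursors to divide, and D-type cyclins, which activate the kinases that act on Rb1, are among its known targets.

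Several genes of this family are known to be E2F targets themselves, so the promoters were searched for the E2F words TTTCCCGC, TTTCGCGC, TTTGCCGC and TTTGGCGC on both strands. Promoters of the RefSeq table (GRCm38.p6, 250 bases before to 50 after a start) were found for 7 of the 10 members, with 9 promoters in all. A match stood in 1 promoter each of E2f2, E2f3, E2f7 and Rbl1, and no match overlapped another. Of all 32851 promoters in the table, 2.26% held a match. The stretches of 30 bases that hold these matches are shown 5′ to 3′ on the strand of the gene, with the match in capitals and its position counted from the start of transcription.
E2f2, chr4:136172294-136172323, + strand, match at 40 to 47: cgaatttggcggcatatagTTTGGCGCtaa
E2f3, chr13:29986056-29986085, - strand, match on the opposite strand at -11 to -4: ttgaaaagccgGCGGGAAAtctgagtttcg
E2f7, chr10:110745230-110745259, + strand, match on the opposite strand at -198 to -191: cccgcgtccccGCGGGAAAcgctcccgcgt
Rbl1, chr2:157204534-157204563, - strand, match at -18 to -11: aagaaggcgatTTTCGCGCgctttgtcgcg
A match is a description of the letters and not a shown binding site.

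The region before this E2f2 start is shown as well, because E2f2 was the E2f gene that passed the test described next. Its 250 bases at chr4:136172024-136172273 on the + strand held 1 CCAAT box, in capitals, a word that 37.4% of the 300-base promoters of the table, a longer window, held on either strand. The table lists another E2f2 promoter, at chr4:136180532-136180831, with 0 E2F matches and 3 CCAAT matches.
E2f2 upstream region: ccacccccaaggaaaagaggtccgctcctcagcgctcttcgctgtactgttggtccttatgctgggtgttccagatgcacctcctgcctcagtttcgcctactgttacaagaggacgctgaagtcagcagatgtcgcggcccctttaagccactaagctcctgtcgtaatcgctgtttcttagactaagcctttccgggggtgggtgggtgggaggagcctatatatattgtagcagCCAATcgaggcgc

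The values are log2 of the deposited probe set intensity, and levels are compared only between samples and never between genes. Array medians lay between 91.0 and 95.1 in intensity, and any pair of arrays correlated at 0.994 to 0.998 across probe sets. The median SD of a gene within a group was 0.11 in SmoA2, 0.08 in Smo/Smo and 0.08 in Wildtype on the log2 scale. Markers of the cerebellum were present on all arrays, among them Zic1 of granule cells (mean log2 intensity 13.2), Calb1 of Purkinje cells (12.9) and Fabp7 of Bergmann glia (13.6). Y-linked probe sets in female samples, at 2.23 to 5.57 on the log2 scale, give a measure of background, and every probe set of the 10 members lay above that range. The choroid plexus markers were lowest in Wildtype replicate 3, where the intensities of 11 markers summed to 2051, against 6320 and 6609 in the other Wildtype arrays. They summed to 8790 to 10392 in SmoA2 and to 10553 to 12141 in Smo/Smo.

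In SmoA2 against Wildtype, 1 of the 10 members passed the test. E2f2 was lower, and none was higher. In bulk tissue, fewer cells of a type and less RNA per cell cannot be told apart. A gene was called where limma gave a Benjamini-Hochberg adjusted p under 0.05 over all genes, which was so for 2.69% of the 19147 genes in this comparison. At an unadjusted p under 0.05 there were 2 members, E2f2 and E2f8, against 14.8% of all genes. The arrays of the groups did not overlap for E2f1, E2f2 and E2f8, against 19.1% of all genes. The median log2 fold change of the 10 members was -0.01, beside 0.0059 over all genes.

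In Smo/Smo against Wildtype, limma called 0 of the 10 members, beside 0.371% of all genes. E2f2 and Rb1 had an unadjusted p under 0.05, against 8.77% of all genes. The groups did not overlap for 5 members, E2f2, E2f4, E2f6, E2f8 and Rb1, against 15.9% of all genes. The members' median was -0.08, beside 0.0055 over all genes. The comparisons of the mutant lines with Wildtype share the same 3 Wildtype arrays.

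Set against Smo/Smo directly, SmoA2 had 1 member called, Rb1, which was lower, beside 2.56% of all genes. E2f4, E2f6 and Rb1 had an unadjusted p under 0.05, against 14.3% of all genes. The groups did not overlap for E2f1, E2f6 and Rb1, against 18.2% of all genes. The moderated F test of any difference among the 3 groups called E2f2 (adjusted p = 0.0289) and left Rb1 just outside the threshold (0.0508), beside 2.89% of all genes called. In 9 of 18 alternative fits this test called no member. The members' fold changes lay between -0.42 and 0.25 on the log2 scale over the 3 comparisons.

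**Figure D1:**
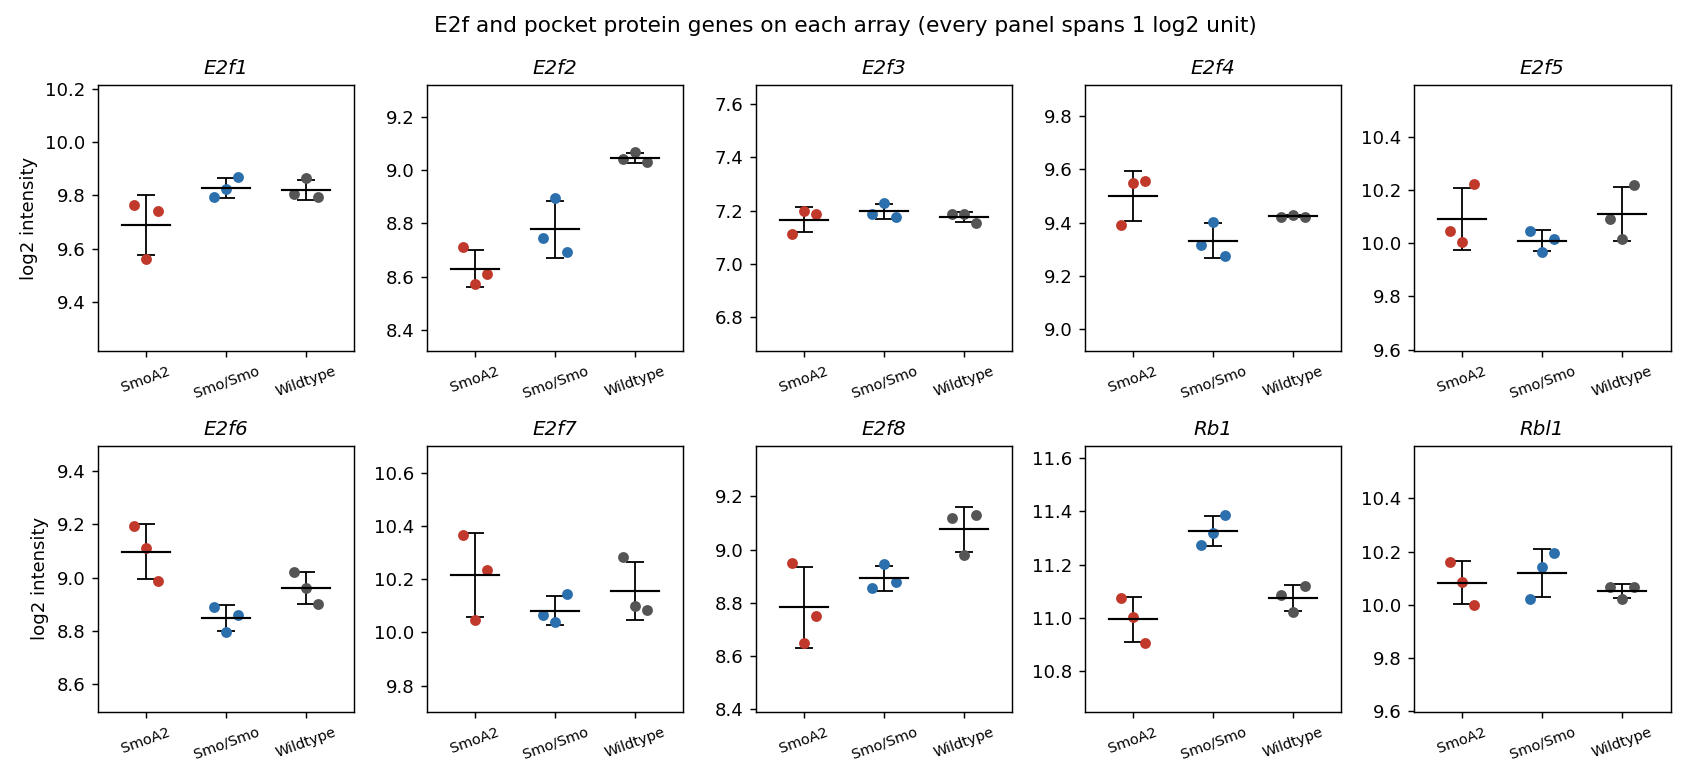
Log2 intensity of the 10 member genes on each array, in panels that all span 1 log2 unit. Points are arrays of SmoA2 (left), Smo/Smo (middle) and Wildtype (right), horizontal lines are group means and bars are 1 SD (n = 3). The 3 Wildtype arrays of E2f2 lie above all mutant arrays, and the 3 Smo/Smo arrays of Rb1 lie above all others.

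Among the activators, E2f2 had log2 intensities of 8.71, 8.57 and 8.61 in SmoA2 and of 8.74, 8.90 and 8.69 in Smo/Smo, against 9.04, 9.07 and 9.03 in Wildtype. The Wildtype arrays lay close together and above all 6 mutant arrays, while the mutant groups overlapped. E2f2 fell 1.33-fold in SmoA2 (log2 fold change -0.42 ± 0.07, SE, n = 3 per group, 95% confidence interval -0.57 to -0.26, adjusted p = 0.0141 in limma). In Smo/Smo it stood at -0.27 ± 0.07 (interval -0.42 to -0.11, adjusted p = 0.232), which was not called. SmoA2 against Smo/Smo gave -0.15 (interval -0.30 to 0.01, adjusted p = 0.381), so a difference between the lines was not shown. The call in SmoA2 was lost without Wildtype replicate 1 (-0.42, adjusted p = 0.0619), without Wildtype replicate 2 (-0.41, adjusted p = 0.0633), and with Wildtype replicate 3 and SmoA2 replicate 3 both left out (-0.41, adjusted p = 0.0995).

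E2f1, the factor best known for linking cell cycle entry with cell death, had log2 intensities of 9.76, 9.56 and 9.74 in SmoA2, against 9.79, 9.83 and 9.87 in Smo/Smo and 9.81, 9.86 and 9.79 in Wildtype. SmoA2 replicate 2 was the lowest array, and all 3 SmoA2 arrays lay below the other 6. The log2 fold change was -0.13 ± 0.07 in SmoA2 against Wildtype (interval -0.28 to 0.02, adjusted p = 0.410) and 0.0079 in Smo/Smo against Wildtype (interval -0.14 to 0.16, adjusted p = 0.988). Neither passed the test. E2f3, an activator that proliferating cells need, lay between 7.11 and 7.20 in SmoA2, between 7.18 and 7.23 in Smo/Smo and between 7.15 and 7.19 in Wildtype, with all groups overlapping. The intervals of its log2 fold change were -0.13 to 0.11 in SmoA2 and -0.10 to 0.14 in Smo/Smo against Wildtype.

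The repressors E2f4 and E2f5, which partner the pocket proteins in resting cells, had no call. E2f4 had log2 intensities of 9.39, 9.55 and 9.56 in SmoA2 and of 9.32, 9.40 and 9.28 in Smo/Smo, against 9.42, 9.43 and 9.42 in Wildtype. All Smo/Smo arrays were below Wildtype, while SmoA2 lay on both sides of it. The log2 fold change was 0.07 in SmoA2 (interval -0.07 to 0.22, adjusted p = 0.647) and -0.09 in Smo/Smo (interval -0.24 to 0.05, adjusted p = 0.758) against Wildtype. Between SmoA2 and Smo/Smo it was 0.17 ± 0.07 (interval 0.02 to 0.31, adjusted p = 0.273). E2f5 lay at 10.003 to 10.22 in SmoA2, 9.97 to 10.04 in Smo/Smo and 10.02 to 10.22 in Wildtype, with log2 fold changes of -0.02 in SmoA2 and -0.10 in Smo/Smo against Wildtype. The highest Wildtype value of E2f5, 10.22, was in replicate 3, the array with the lowest choroid plexus markers, and without that array the SmoA2 value was 0.04. Whether the cell makeup of that array bears on E2f5 was not tested.

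E2f6, the polycomb-linked repressor, had log2 intensities of 9.20, 9.11 and 8.99 in SmoA2 and of 8.89, 8.80 and 8.86 in Smo/Smo, against 9.02, 8.96 and 8.90 in Wildtype. The mutant lines lay on opposite sides of Wildtype, with SmoA2 overlapping it. SmoA2 against Smo/Smo gave 0.25 ± 0.07 (interval 0.09 to 0.40, adjusted p = 0.112), which became a call with array weights and with only genes of a mean log2 of at least 6. Its other probe set gave -0.04 (adjusted p = 0.881 over all probe sets) and did not show this order.

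Of the atypical repressors, E2f8 had log2 intensities of 8.95, 8.65 and 8.75 in SmoA2 and of 8.86, 8.95 and 8.88 in Smo/Smo, against 9.12, 8.98 and 9.13 in Wildtype. All mutant arrays lay below all Wildtype arrays, as for E2f2. The fold change was -0.29 ± 0.08 in SmoA2 (interval -0.48 to -0.10, adjusted p = 0.127) and -0.18 ± 0.08 in Smo/Smo (interval -0.37 to 0.01, adjusted p = 0.584), and neither was called. The other E2f8 probe set gave -0.13 and -0.14 in these comparisons (adjusted p = 0.600 and 0.762), with SmoA2 replicate 1 at 6.47 above the Wildtype arrays. E2f7 lay between 10.05 and 10.36 in SmoA2, between 10.04 and 10.14 in Smo/Smo and between 10.08 and 10.28 in Wildtype. Its fold changes of 0.06 (interval -0.14 to 0.26) in SmoA2 and -0.07 (interval -0.28 to 0.13) in Smo/Smo had no call.

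Rb1, the founding pocket protein and a tumour suppressor, had log2 intensities of 11.08, 11.003 and 10.91 in SmoA2 and of 11.28, 11.32 and 11.39 in Smo/Smo, against 11.09, 11.02 and 11.12 in Wildtype. The 3 Smo/Smo arrays, which are also the 3 of the other code series, lay above the other 6, and SmoA2 overlapped Wildtype. SmoA2 was 1.26-fold lower than Smo/Smo (log2 fold change -0.33 ± 0.06, SE, n = 3 per group, interval -0.48 to -0.19, adjusted p = 0.0320 in limma). Against Wildtype, Rb1 stood at -0.08 in SmoA2 (interval -0.23 to 0.06, adjusted p = 0.613) and at 0.25 ± 0.06 in Smo/Smo (interval 0.11 to 0.40, adjusted p = 0.235), and neither was called. The other Rb1 probe set had 8.22, 8.19 and 7.63 in SmoA2 and 8.41, 8.40 and 8.49 in Smo/Smo, against 8.17, 8.22 and 7.99 in Wildtype, with the same group on top. It gave -0.42 ± 0.14 in SmoA2 against Smo/Smo, with no call over all probe sets (adjusted p = 0.213).

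The call of Rb1 stood near the threshold. It was lost in 8 of the 9 fits that left out 1 array, all but the one without SmoA2 replicate 1, with adjusted p up to 0.116 and fold changes of -0.36 to -0.29. It was also lost with only the SmoA2 and Smo/Smo arrays fitted (adjusted p = 0.0957), with the mean of its probe sets (-0.38, adjusted p = 0.0872) and with sex as a covariate (adjusted p = 0.0544). Rb1 lies on chromosome 14, where 44 of 702 genes placed there were called between SmoA2 and Smo/Smo, or 6.27%, beside 2.56% of all genes. Of these 702 genes, 3.42% were called in SmoA2 and 2.56% in Smo/Smo against Wildtype, beside 2.69% and 0.371% of all genes. Rbl1 (p107), the other pocket protein of the set and one that rises in dividing cells, lay between 10.001 and 10.16 in SmoA2, between 10.02 and 10.19 in Smo/Smo and between 10.02 and 10.07 in Wildtype. Its intervals against Wildtype were -0.12 to 0.18 in SmoA2 and -0.08 to 0.22 in Smo/Smo.

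**Figure D2:**
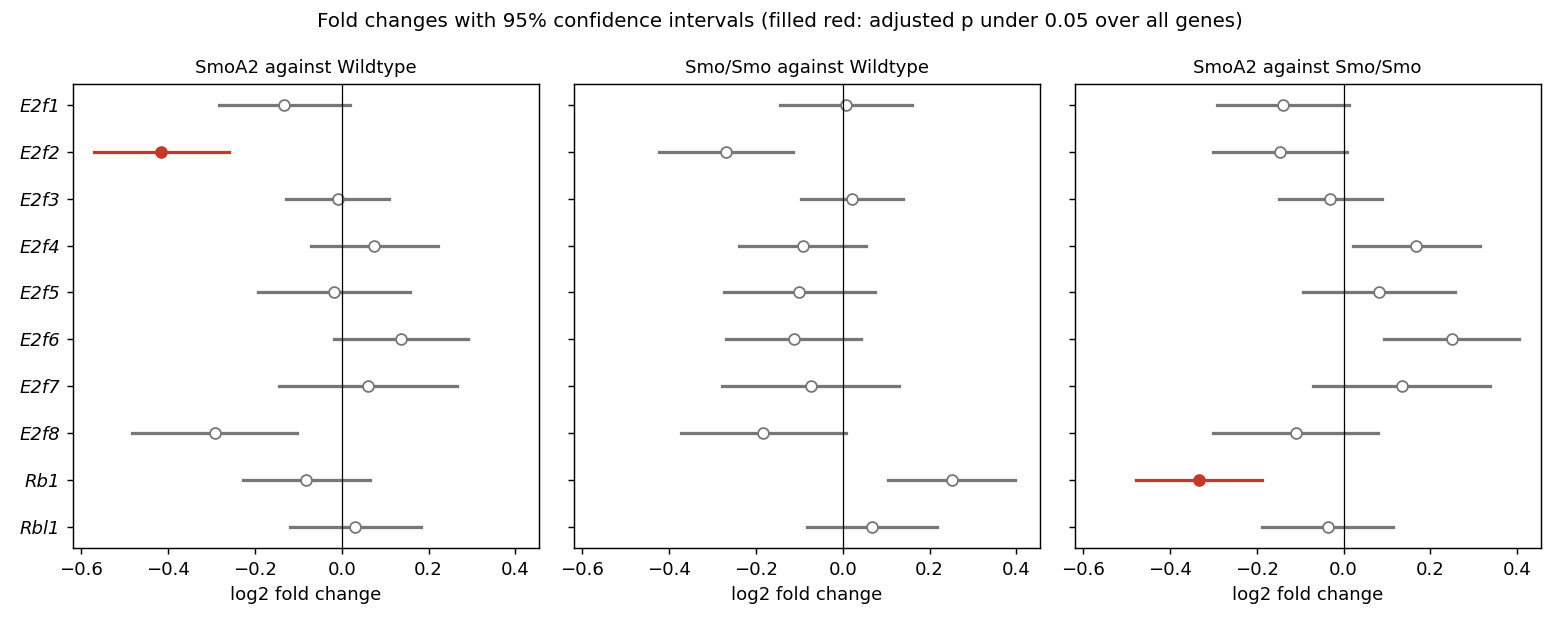
Log2 fold changes (points) of the 10 member genes with 95% confidence intervals (lines), in SmoA2 against Wildtype, Smo/Smo against Wildtype and SmoA2 against Smo/Smo. Filled red points passed an adjusted p under 0.05 over all genes: E2f2 in the first comparison (-0.42) and Rb1 in the last (-0.33).

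**Figure D3:**
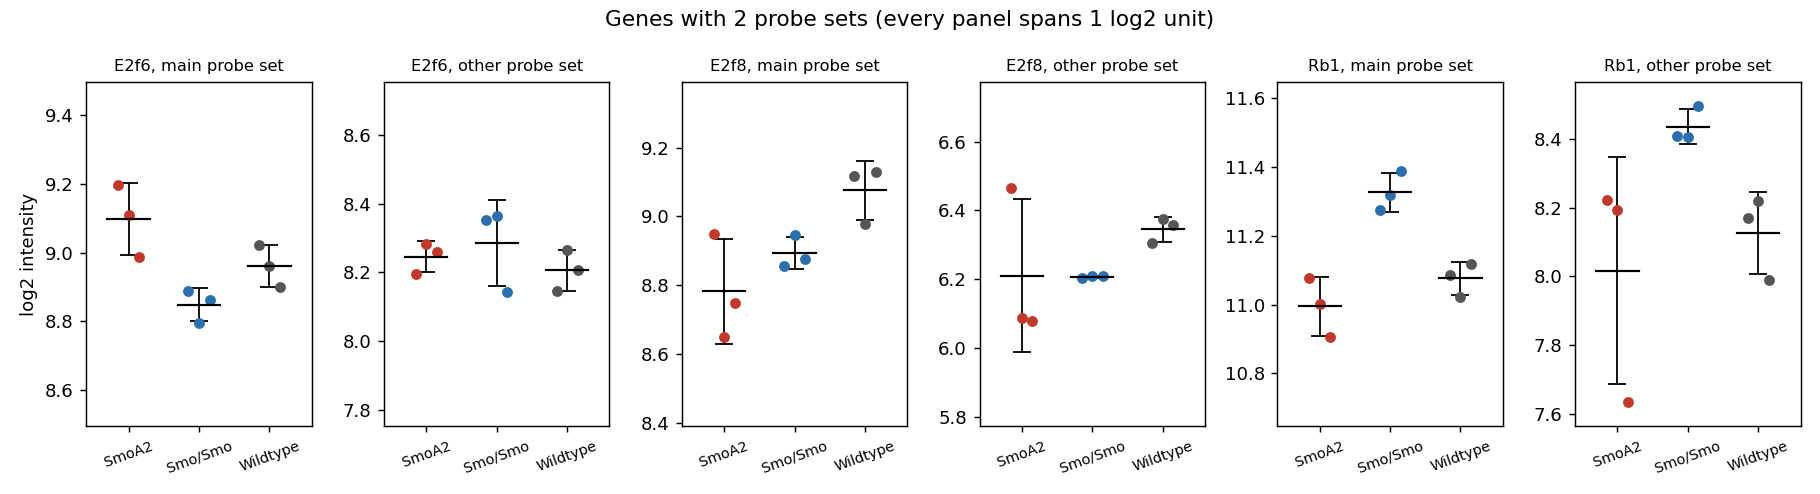
Log2 intensity on each array for both probe sets of E2f6, E2f8 and Rb1, in panels that span 1 log2 unit, with SmoA2 left, Smo/Smo in the middle and Wildtype right. Lines are group means and bars 1 SD (n = 3). Smo/Smo is highest on both Rb1 probe sets, while the probe sets of E2f6 order the groups differently.

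The pattern over the 9 arrays was set against every other gene by Pearson's r, as a description that includes the difference between groups. The genes most like E2f2 were Ptger3 (r = 0.962), Csf1 (0.959), Kcnip4 (0.953), Irx5 (0.950) and Abi3bp (0.948). Those most like Rb1 were Sgms1 (0.996), Elmo2 (0.993), Ppp1cb (0.970), Nsd3 (0.966) and Rnase4 (0.958), and of these only Rnase4 lies on chromosome 14 with Rb1.

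Cells of different kinds share these samples. Beside the fall of E2f2 in SmoA2, limma called 4 of 8 Purkinje cell markers lower, 4 of 6 interneuron markers, 2 of 8 Bergmann glia and astrocyte markers, 7 of 9 meningeal markers and 2 of 6 endothelial markers, and none of these higher. Over all genes, 2.69% were called in SmoA2 against Wildtype. The summed intensity of the Purkinje markers was 20484 to 22469 in SmoA2 and 26766 to 27292 in Smo/Smo, against 26459 to 27814 in Wildtype. That of the interneuron markers was 5163 to 5461 in SmoA2 and 7147 to 7425 in Smo/Smo, against 7334 to 8036 in Wildtype. That of the meningeal markers was 6113 to 7340 in SmoA2 and 8615 to 9024 in Smo/Smo, against 9314 to 9548 in Wildtype. SmoA2 lay below both other groups in all 3 sums. The 8 genes listed as granule neuron progenitor markers were split in SmoA2, with 4 above 0 and 4 below. Atoh1, Gli1 and Ccnd1 were called higher, none was called lower, and Rgs8 (-0.49, adjusted p = 0.0782) and Ccnd2 (-0.24, adjusted p = 0.0787) were lowest. The intensities of the 8 had sums of 27826 to 30207 in SmoA2, 29393 to 31158 in Smo/Smo and 29368 to 29867 in Wildtype. Rgs8 had means of 9.08 in SmoA2, 9.65 in Smo/Smo and 9.56 in Wildtype. All 8 Purkinje markers were likewise below 0 in SmoA2 against both other groups, and which cells Rgs8 marks here was not tested. E2f2 is also known for its role in red cell precursors, and of 5 erythroid markers measured none was called, with sums of 308 to 394 in SmoA2, 346 to 416 in Smo/Smo and 325 to 457 in Wildtype. The 6 microglia markers summed to 2503 to 3082 in SmoA2 and 1840 to 2059 in Smo/Smo, against 2140 to 2329 in Wildtype. None of them was called in SmoA2 against Wildtype, and 3 had an unadjusted p under 0.05 in limma, beside 14.8% of all genes. Beside the Rb1 call in SmoA2 against Smo/Smo, 3 of 8 Purkinje, 4 of 6 interneuron and 2 of 8 Bergmann glia and astrocyte markers were called lower in SmoA2. So were 5 of 9 meningeal and 3 of 6 endothelial markers, while 2 of 6 microglia markers were called higher. Over all genes, 2.56% were called in that comparison. Of the genes listed for granule neuron progenitors, Atoh1 and Gli1 were called higher there and Rgs8 lower. Of 7 maturing granule neuron markers, Cntn2 was called lower there, and Grin2c was called higher in both lines against Wildtype. By sign, 2 of these 7 were above 0 and 5 below in SmoA2 against Wildtype, and 6 above and 1 below in Smo/Smo against Wildtype. In SmoA2 against Smo/Smo, 1 was above 0 and 6 below. Their sums were 17652 to 17963 in SmoA2 and 18536 to 19218 in Smo/Smo, against 18251 to 18653 in Wildtype. No oligodendrocyte marker was called in any comparison. The part of cell makeup in the E2f2 and Rb1 results was not tested.

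Upstream of the pocket proteins, the cyclins and kinases that phosphorylate them had 2 of 7 measured genes called higher in SmoA2 and none lower. The share of all genes called in SmoA2 against Wildtype was 2.69%. Cdk6, a kinase partner of D-type cyclins, had log2 intensities of 12.51, 12.37 and 12.42 in SmoA2 and of 11.87 on all 3 Smo/Smo arrays, against 11.47, 11.53 and 11.57 in Wildtype. The groups were fully apart, and Cdk6 rose by 0.91 ± 0.06 in SmoA2 (adjusted p = 8.86e-05) and stood at 0.34 ± 0.06 in Smo/Smo (adjusted p = 0.0530), where 5 alternatives called it. Its 5 other probe sets gave 0.44 to 1.03 in SmoA2, and 3 of them were called over all probe sets. Ccnd1, cyclin D1, had 10.66, 10.33 and 10.96 in SmoA2 and 10.37, 10.40 and 10.33 in Smo/Smo, against 9.82, 9.46 and 9.79 in Wildtype, and rose by 0.96 ± 0.15 in SmoA2 (adjusted p = 0.0116), a call lost without Wildtype replicate 2 (0.0501). In Smo/Smo it stood at 0.68 (adjusted p = 0.161), while its other probe set was called there (0.55, adjusted p = 0.0182 over all probe sets). Ccnd2, another D-type cyclin and a gene chosen after its values were seen, went the other way, with 13.04, 12.90 and 12.97 in SmoA2 and 13.09, 13.14 and 13.22 in Smo/Smo, against 13.21, 13.19 and 13.23 in Wildtype. All SmoA2 arrays lay below the other 6, but its -0.24 ± 0.06 in SmoA2 against Wildtype was not called (adjusted p = 0.0787). The median of the list was 0.07, beside 0.0059 over all genes. Of 6 Cdk inhibitors, Cdkn1c (p57) was lower in SmoA2 (-0.39 ± 0.08, adjusted p = 0.0459), a call that held in 1 of 9 fits with 1 array left out, the one without SmoA2 replicate 3. In Smo/Smo neither list had a call by its main probe sets. At an unadjusted p under 0.05 in limma there were 2 of 7 and 0 of 6 genes, beside 8.77% of all genes.

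Downstream, 23 E2F target genes of G1/S and DNA synthesis were measured, and limma called 0 of them in any of the 3 comparisons. At an unadjusted p under 0.05 there were 5 in SmoA2 against Wildtype, 2 in Smo/Smo against Wildtype and 7 in SmoA2 against Smo/Smo. The shares of all genes at that cut were 14.8%, 8.77% and 14.3%. The fold changes in SmoA2 lay between -0.09 and 0.25 with a median of 0.13, 18 above 0 and 5 below, beside a median of 0.0059 over all genes. In Smo/Smo the median was 0.01, with 16 above 0 and 7 below. In SmoA2 against Smo/Smo the median was 0.09, with 22 above 0 and 1 below, beside -0.0030 over all genes. Mcm6, a subunit of the replicative helicase, had 10.69, 10.68 and 10.81 in SmoA2 and 10.49, 10.53 and 10.55 in Smo/Smo, against 10.50, 10.52 and 10.41 in Wildtype, with SmoA2 above both other groups (0.25 ± 0.06 against Wildtype, adjusted p = 0.0709, called under 3 alternatives). Cdc6, which loads that helicase, had 6.37, 6.51 and 6.37 in SmoA2 and 6.06, 6.17 and 5.94 in Smo/Smo, against 6.36, 6.42 and 6.54 in Wildtype, with Smo/Smo lowest (-0.38 ± 0.08 against Wildtype, adjusted p = 0.133).

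The DREAM complex joins E2f4 and pocket proteins at cell cycle genes. Of 10 measured Dp partners and genes listed for MuvB and DREAM, not all of them subunits, none was called against Wildtype in either line. At an unadjusted p under 0.05 in limma there was 1 gene in each line, beside 14.8% of all genes in SmoA2 and 8.77% in Smo/Smo. Mybl1, a Myb factor, was called between the lines, 0.39 ± 0.08 higher in SmoA2 than in Smo/Smo (adjusted p = 0.0470), a call that held in 1 of 9 fits with 1 array left out, the one without SmoA2 replicate 2. Among 7 chromatin factors bound by pocket proteins, 9 of the E2f6 polycomb complex and 6 that act in turnover of E2F and pocket proteins, none was called in any comparison. In SmoA2 against Wildtype these lists had 0, 0 and 1 genes at an unadjusted p under 0.05 in limma, beside 14.8% of all genes. Their medians were 0.00098, -0.01 and 0.0024. By the smallest F test p, their leading genes were Kdm5a and Smarca4, Rybp and L3mbtl2, and Skp2 and Ccnf. Of these, Skp2, which marks p27 for destruction, stood at 0.26 ± 0.06 in SmoA2 against Smo/Smo (adjusted p = 0.0536).

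Of 6 genes that link E2f1 with cell death, 1 was called lower in SmoA2 against Wildtype, Trp73 (p73). Hrk, a Bcl2-family death gene, was called higher, and 4 were not called, beside 2.69% of all genes called. The list median was -0.05, with 2 above 0 and 4 below. In Smo/Smo against Wildtype none was called, and all 6 were below 0 with a median of -0.11. Trp73 had 6.33, 6.48 and 6.40 in SmoA2 and 7.53, 7.30 and 7.74 in Smo/Smo, against 7.84, 7.99 and 7.70 in Wildtype, a change of -1.44 ± 0.11 in SmoA2 (adjusted p = 0.000347), while its other probe set gave -0.25 with no call (0.477 over all probe sets). Hrk had 8.62, 8.64 and 8.34 in SmoA2 and 7.92, 7.88 and 7.88 in Smo/Smo, against 8.01, 8.05 and 7.91 in Wildtype, a rise of 0.54 ± 0.08 in SmoA2 (adjusted p = 0.0106).

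E2f4 and E2f5 also act with Mcidas to turn on the genes of cells with many cilia. Of 11 such genes measured, 3 were called lower in SmoA2 against Wildtype, Trp73 again, Ccno and Mcidas, and none was called higher. The share called over all genes was 2.69%. By sign, 5 of the 11 were above 0 and 6 below. Gmnc was among those above 0, with means of 6.22 in SmoA2 and 6.71 in Smo/Smo against 5.79 in Wildtype, and was not called. Its Wildtype replicate 3, at 5.29, lay within the range of the Y-linked background. Ccno had 7.19, 7.25 and 6.98 in SmoA2 and 7.63, 7.46 and 7.48 in Smo/Smo, against 7.85, 7.80 and 7.72 in Wildtype, a fall of 0.65 on the log2 scale (adjusted p = 0.00480). Mcidas had 5.86, 5.80 and 6.04 in SmoA2 and 6.61, 6.30 and 6.32 in Smo/Smo, against 6.43, 6.54 and 6.49 in Wildtype. Its call, a fall of 0.59 (adjusted p = 0.0138), was lost without Wildtype replicate 2 (0.0657) or SmoA2 replicate 1 (0.0539). The SmoA2 values of Mcidas lay close to the upper end of the Y-linked background, 5.57, and whether dim signal bears on this fall was not tested. The list median was -0.19 in SmoA2 and -0.05 in Smo/Smo, beside 0.0059 and 0.0055 over all genes. In Smo/Smo none of the 11 was called, with 3 at an unadjusted p under 0.05 in limma, beside 8.77% of all genes. Set against Smo/Smo directly, SmoA2 had Mcidas, Trp73 and Rfx2 called lower and Myb called higher, beside 2.56% of all genes called. There the list median was -0.32, and 7 of the 11 had an unadjusted p under 0.05 in limma, beside 14.3% of all genes. The choroid plexus, whose epithelium carries cilia, had its 11 markers above 0 in both lines, with none called in limma. At an unadjusted p under 0.05 there were 10 in SmoA2 and 9 in Smo/Smo, beside 14.8% and 8.77% of all genes. The part of the choroid plexus in these values was not tested.

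**Figure D4:**
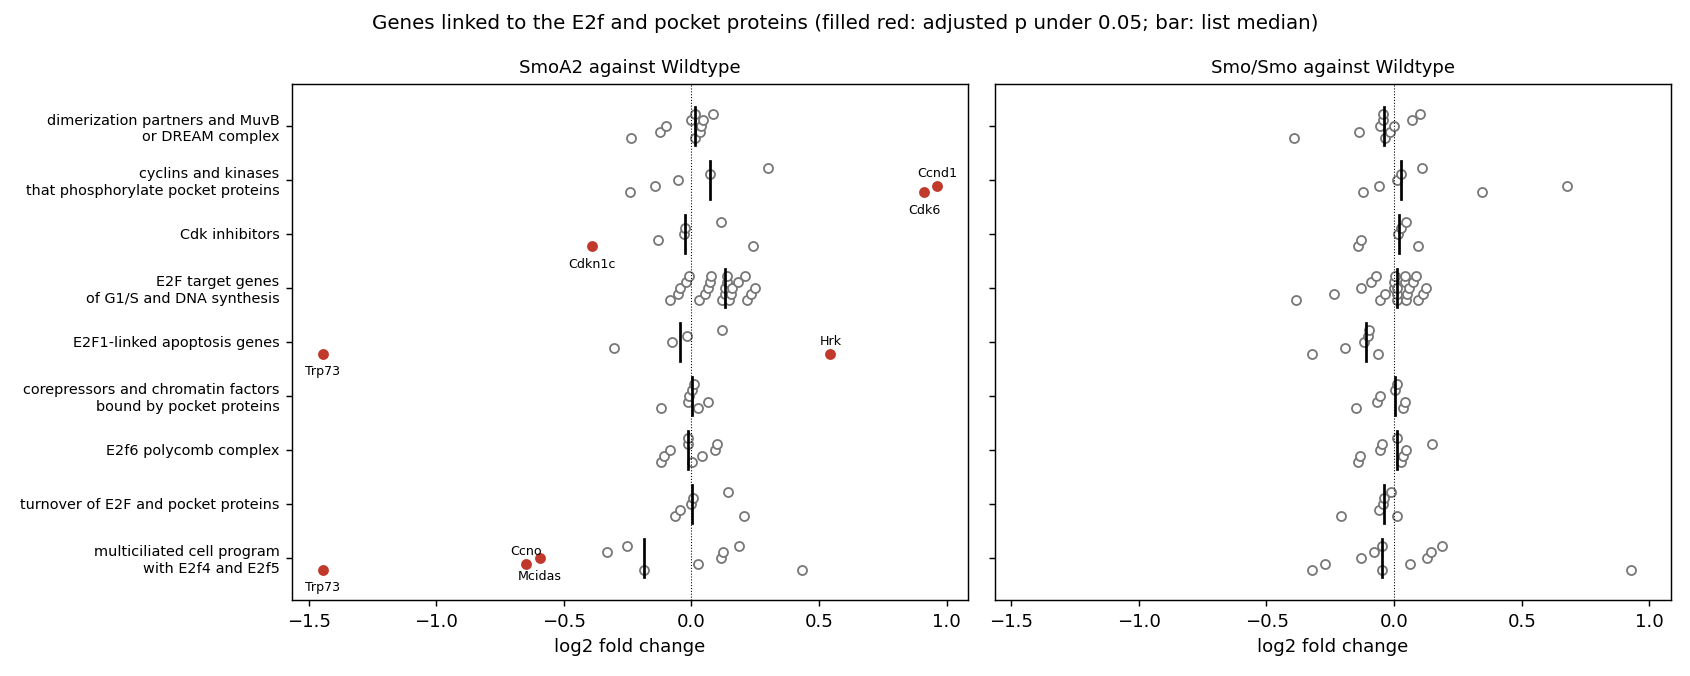
Log2 fold changes of the genes linked to the E2f and pocket proteins, 1 point per gene and 1 row per list, in SmoA2 against Wildtype (left) and Smo/Smo against Wildtype (right). Filled red points passed an adjusted p under 0.05 over all genes and bars are list medians. In SmoA2, Cdk6 (0.91) and Ccnd1 (0.96) lie far above the E2F target genes, which lie between -0.09 and 0.25, and no point of Smo/Smo is filled.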

How the data were processed

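The deposited values are probe set intensity on custom Affymetrix arrays, with RMA named in the submitters' processing notes and no version given. Any further step between the scan and these values is not given in the sources used here. They are on a linear scale, so log2 was taken. Of 38385 probe sets, 24478 carried 1 gene symbol in the platform annotation, 65 several and 13842 none, and the last groups were left out. All 9 arrays were fitted in 1 model with group means and without covariates, using limma 3.58.1 (lmFit and eBayes) in R 4.3.3, tested first on simulated data. P-values were adjusted over all 19147 genes. Intervals are 95% confidence intervals of 1 gene, not adjusted. The number of arrays limits precision. The members, gene lists and the rule for named genes (up to 3, 2 and 2 called genes per list in the 3 comparisons, smallest p first, or the 2 leading genes of the F test) were chosen with earlier results of these data known. Listed genes without a probe set of their single symbol were not analysed here. Xist and Y-linked genes gave the sex (1 male and 2 females in Wildtype, 2 males and 1 female in each mutant group). Promoter words were searched in RefSeq sequences of GRCm38.p6. Figures were drawn with matplotlib 3.10.9.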

Additional observations from a re-analysis of the deposited data

Results flagged for a closer look

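A difference between the effects in the mutant lines, tested as SmoA2 against Smo/Smo, was called for 6 of the members and of the genes picked by the rule for named genes. Rb1 differed by -0.33 on the log2 scale (adjusted p = 0.0320), with SmoA2 near Wildtype and Smo/Smo above it. Cdk6 differed by 0.57 (adjusted p = 0.00186), Hrk by 0.64 (0.00580) and Mybl1 by 0.39 (0.0470), all higher in SmoA2. Trp73 differed by -1.12 (adjusted p = 0.00186) and Mcidas by -0.51 (0.0297), both lower in SmoA2. With 1 array left out, the calls of Rb1, Mybl1 and Mcidas each held in 1 of 9 fits, without SmoA2 replicate 1, 2 and 3, in that order. Single outlying arrays were not tested for within groups of 3. The array weights that limma estimated over all genes ran from 0.386 for SmoA2 replicate 3 to 2.13 for Wildtype replicate 1.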

How the results depend on the processing

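Over 20 alternatives, the member called in SmoA2 against Wildtype was E2f2 in 17 and none in 3, and in Smo/Smo against Wildtype none was called in any of the 20. In SmoA2 against Smo/Smo, 0 members were called with only those groups fitted, with the mean of all probe sets, with sex as a covariate and with Wildtype replicate 3 and SmoA2 replicate 3 left out, and 2 (E2f6 and Rb1) with array weights or with genes of a mean log2 of at least 6. Leaving out 1 array gave 0 to 1 in each of these comparisons with SmoA2 and 0 to 1 in the F test. The F test then kept E2f2 only without Smo/Smo replicate 2 or without Smo/Smo replicate 3. In the F test, whose alternatives were chosen after seeing the data, 2 were called (E2f2 and Rb1) with 16 added to the intensity, with that filter, with an intensity trend and robust estimation or with array weights, and 0 with sex as a covariate or without both arrays named above. Of 600 fold changes of members under these alternatives, 569 kept their direction and their side of the threshold, 15 called ones lost the call, 2 gained it, and 14 uncalled ones changed sign. Most of the 600 were not called in the main fit and had no call to lose. The called ones were E2f2 in SmoA2 against Wildtype, which kept its call in 17 of 20 alternatives, and Rb1 in SmoA2 against Smo/Smo, which kept it in 8 of 20. Of calls named from the gene lists, those of Ccnd1 (adjusted p = 0.0528), Hrk (0.0528) and Cdkn1c (0.130) in SmoA2 against Wildtype and of Mybl1 (0.0878) and Mcidas (0.0957) in SmoA2 against Smo/Smo were lost with only the groups compared. Without both replicate 3 arrays named above, those of Ccnd1 (0.0553) and Mcidas (0.0589) against Wildtype and of Mybl1 (0.102) and Mcidas (0.0584) against Smo/Smo were lost. Array medians centred took the call from Cdkn1c (0.0710) and Mybl1 (0.0635), testing every probe set also did (0.0519 and 0.0519), and Mybl1 lost it with quantile normalization (0.0661), array weights (0.0515) and sex as a covariate (0.0788). Genes called over all genes, 515, 71 and 490 in the 3 comparisons, lay at 234 to 445, 21 to 65 and 170 to 467 with 1 array left out, and at 215 to 776, 38 to 162 and 231 to 809 under the other alternatives. The cause of these changes was not tested. No paired analysis was possible because SmoA2 and Wildtype arrays have different numbers of one code series and the Smo/Smo arrays have another series, and no label pairs them. All member probe sets lay above the Y-linked range, but whether dim signal lessens their fold changes was not tested.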

Other observations

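Rbl2 (p130), the pocket protein that was not among the 10 genes, had log2 intensities of 8.35, 8.31 and 8.33 in SmoA2 and of 8.32, 8.32 and 8.44 in Smo/Smo, against 8.32, 8.21 and 8.28 in Wildtype. It stood at 0.06 in SmoA2 (interval -0.08 to 0.19) and 0.09 in Smo/Smo (interval -0.04 to 0.23) against Wildtype, with no call.

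The 5 measured genes before and the 5 after Rb1 on chromosome 14 were taken by start coordinate in the RefSeq table. This order does not show whether a gene overlaps Rb1. Rcbtb2 and Lpar6, the next to Rb1 in this order, were called between SmoA2 and Smo/Smo, in the opposite direction to Rb1. The other 8 were not called and lay between -0.30 and 0.13 on the log2 scale, 3 of them below 0. Of these, 4930429C20Rik, 4930434J06Rik, Cysltr2, 4933402J15Rik and Htr2a had group means within the Y-linked background range, 2.23 to 5.57. Their lack of a call therefore says little. Fndc3a, Itm2b and Sucla2 lay above that range. Over the 702 chromosome 14 genes tested, 6.27% were called in this comparison. Rcbtb2 was 0.57 ± 0.08 higher in SmoA2 than in Smo/Smo (adjusted p = 0.00848) and stood at -0.48 in Smo/Smo against Wildtype (adjusted p = 0.0556). Lpar6, a lysophosphatidic acid receptor gene, was 0.30 ± 0.06 higher in SmoA2 than in Smo/Smo (adjusted p = 0.0319). These neighbours were chosen for a look after the Rb1 value was seen.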
